A study of Mus musculus with 10 samples.

Results

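The miR-10 family was followed in a small RNA sequencing series of mouse splenic B-cells. Its members were the 4 count table rows of class miRNA named mmu-miR-10a-5p, mmu-miR-10a-3p, mmu-miR-10b-5p and mmu-miR-10b-3p, taken whatever their values, out of 1302 mature microRNAs and 6968 small RNA features. CD43- splenic B-cells came from 129 wt mice, from 3'RR-deficient mice and from Eµ-deficient mice, the last 2 on a 129 background, and per the study's methods the mice were 8 to 12 weeks old. The 3'RR (3' regulatory region) and Eµ flank the constant genes of the immunoglobulin heavy chain (IgH) locus. The study treats the 3'RR as a super-enhancer, and Eµ as one in pro-B/pre-B-cells but as an enhancer in mature B-cells. The Eµ deletion of this line also takes the flanking matrix attachment regions (EµMAR). Per the labels each library pooled the cells of 2 mice after 2 days in growth medium, either non-stimulated (NS) or with 5 µg/ml of lipopolysaccharide (LPS), a bacterial product that activates B-cells. The dose is that of the sample characteristics and the study's methods, whereas the protocol text of the labels writes mg in place of µg. The study's methods describe cells taken before stimulation and 48 h after it, and if this holds for the small RNA the LPS comparison also contains the effect of culture. The wt and 3'RR-deficient groups had 2 libraries in each condition, and the Eµ-deficient group had 1 library in each condition.

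MicroRNAs are cut from a hairpin precursor. One arm is usually loaded into an Argonaute protein and pairs with messenger RNAs mainly through its seed (bases 2 to 8), while the other arm is mostly degraded. The miR-10 genes lie inside the Hox clusters, which hold the homeobox transcription factors of body patterning, and miR-10 microRNAs are known to repress Hox transcripts. In both genes the 5p arm is the guide strand found in most tissues. The miR-99/100 microRNAs are the closest relatives by sequence.

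Total counts per library ranged from 3482540 to 18144016, of which 2225722 to 12377000 were in the microRNA class. The second NS libraries of wt and 3'RR-deficient cells were the shallowest. The B-cell and lymphoid markers miR-150-5p, miR-155-5p, miR-142a-3p, miR-142a-5p and miR-181a-5p had counts in every library and summed to 87970 to 255684 CPM (CPM of the microRNA class after TMM scaling, which corrects the library size for composition). Within this sum the NS replicates stood apart. miR-142a-5p had 177522 and 7357 CPM in wt NS and 84931 and 6191 CPM in 3'RR-deficient NS cells, first library first. miR-150-5p and miR-181a-5p were higher in the second ones. Myeloid, erythroid, mesenchymal, epithelial and endothelial markers were present too, and their values stand beside the LPS result.

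The mature 5p sequences are shown first because their likeness limits what the counts can say. They were taken from RefSeq (GRCm38.p6), in which 1093 of the 1302 mature microRNAs had an entry, and capitals mark the seed.
miR-10a-5p: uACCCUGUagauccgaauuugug
miR-10b-5p: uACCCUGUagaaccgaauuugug
Both share the seed ACCCUGU, which no other of the 1679 RefSeq mouse mature names carries. They are 23 nt long and differ at a single base, U12A, counted from 1 at the 5' end with the miR-10a base first. The same pair is repeated with the differing base in capitals.
miR-10a-5p: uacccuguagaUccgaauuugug
miR-10b-5p: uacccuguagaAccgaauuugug

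The 3p arms are shown because their difference lets the genes be told apart better, again with the seed in capitals.
miR-10a-3p: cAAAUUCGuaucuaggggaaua
miR-10b-3p: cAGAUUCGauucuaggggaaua
These differ at 3 of 22 bases, A3G, U9A and A10U, and A3G lies in the seed. The related miR-99/100 microRNAs share most of the 5p sequence but have another seed.
miR-99a-5p: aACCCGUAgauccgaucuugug
miR-100-5p: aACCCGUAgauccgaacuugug
miR-99b-5p: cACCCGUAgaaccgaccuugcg

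In mm10 coordinates miR-10a-5p lies at chr11:96317186-96317208 and miR-10a-3p at chr11:96317227-96317248, both on the plus strand. GENCODE M21 places the Mir10a hairpin (110 nt) between genes of the Hoxb cluster, 1059 bp before the start of Hoxb4 and 11065 bp after the end of Hoxb5 as measured from miR-10a-5p. miR-10b-5p lies at chr2:74726074-74726096 and miR-10b-3p at chr2:74726114-74726135, also on the plus strand. The Mir10b hairpin (68 nt) is intronic, in introns of both Hoxd4 and Hoxd3 of the same strand. The row for the Mir10a hairpin itself held between 0 and 20 counts per library, and the Mir10b hairpin was not analysed here.

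The 5p arms made up nearly all counts of the family. miR-10a-5p had 80728 counts over the 10 libraries and ranked 81 of the 1302 mature microRNAs by its mean share. miR-10b-5p followed with 67636 counts at rank 85. miR-10a-3p, the passenger arm of Mir10a, had 2591 counts at rank 224. miR-10b-3p, the passenger arm of Mir10b, had 45 counts at rank 717 and was at 0 in 6 of the 10 libraries.

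The level of miR-10a-5p in the NS libraries was 2120 and 644.7 CPM in wt cells, 2064 and 814.7 CPM in 3'RR-deficient cells and 1635 CPM in Eµ-deficient cells. In the LPS libraries it was 579.1 and 976.9 CPM in wt cells, 1008 and 696.7 CPM in 3'RR-deficient cells and 594.4 CPM in Eµ-deficient cells. The first NS library of each genotype lay above all 5 LPS libraries, while the second NS libraries of wt and 3'RR-deficient cells lay among them, so NS and LPS overlapped. Of all features tested, 12.9% had the LPS libraries of wt and 3'RR-deficient cells all below the NS ones and 18.9% all above, and 4.45% and 11.2% had this over all 10 libraries. The level of miR-10b-5p was 1777, 519.5, 1729, 648.0 and 1370 CPM in the NS libraries in the same order, and 502.6, 814.7, 875.0, 582.8 and 495.9 CPM in the LPS libraries. The same libraries were high and low as for miR-10a-5p. The level of miR-10a-3p was 69.6, 14.0, 67.4, 34.0 and 36.9 CPM in NS and 22.1, 37.3, 35.2, 22.1 and 23.8 CPM in LPS, and these also overlapped.

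**Figure D1:**
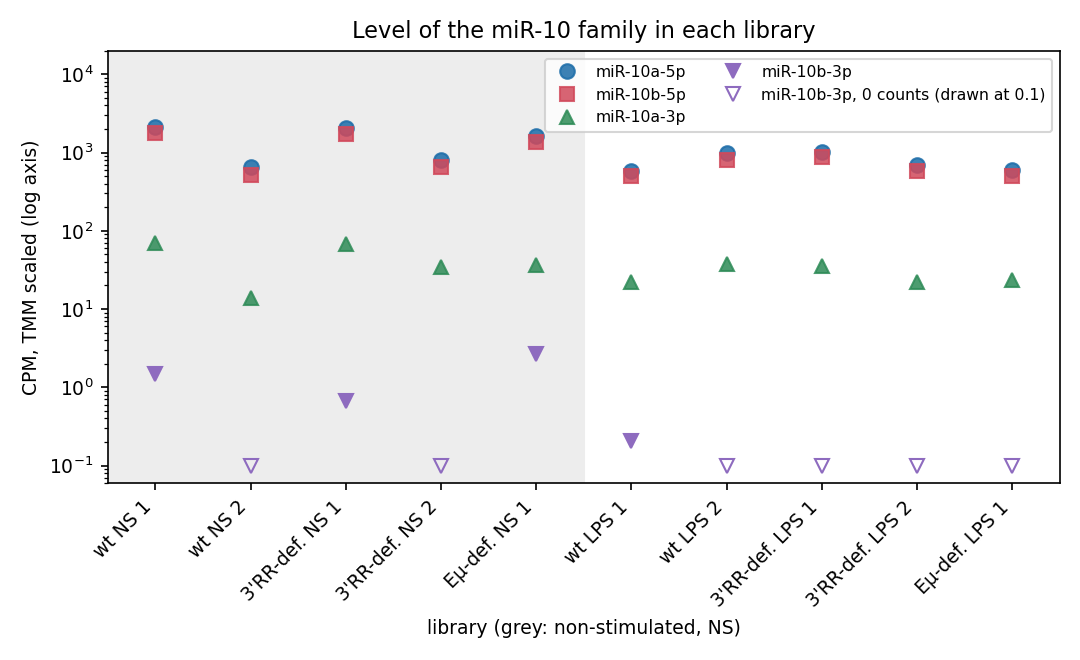
Level of the 4 miR-10 members in each of the 10 libraries, in CPM after TMM scaling on a log axis, with the NS libraries on grey and libraries with 0 counts of miR-10b-3p drawn as open symbols at 0.1. The 5p arms of miR-10a and miR-10b run side by side between 495.9 and 2120 CPM, the first NS library of each genotype is highest, and miR-10b-3p stays at or below 2.69 CPM.

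Ordered by group mean, miR-10a-5p was highest in the single Eµ-deficient NS library, followed by 3'RR-deficient NS cells at 1439 ± 884 CPM (SD, n = 2), wt NS cells at 1382 ± 1043 CPM (SD, n = 2), 3'RR-deficient LPS cells at 852 ± 220 CPM (SD, n = 2), wt LPS cells at 778 ± 281 CPM (SD, n = 2) and the single Eµ-deficient LPS library. Between most neighbours the difference was below the SD of either replicated group. The exception was wt NS against 3'RR-deficient LPS cells, whose difference was below the SD of the NS group but above that of the LPS group. As log2 ratios between single libraries on this scale, the second NS replicate against the first gave -1.72 in wt cells and -1.34 in 3'RR-deficient cells. The second LPS replicate against the first gave 0.75 in wt cells and -0.53 in 3'RR-deficient cells. On this scale the differences between NS replicates exceeded the fitted LPS differences given further on. The NS replicates also differed widely in other features. Scaled over the wt and 3'RR-deficient libraries alone, the SD of that difference over all features tested was 1.96 in wt and 1.78 in 3'RR-deficient cells.

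As a plain share, without TMM scaling, miR-10a-5p ran between 870 and 1941 in CPM of the microRNA class in NS libraries and between 489 and 1056 in LPS libraries. The NS replicates were at 1525 and 870 in wt cells and at 1620 and 1086 in 3'RR-deficient cells, closer together than after TMM scaling. On this scale the overlap came from a single pair, the second wt NS library at 870 (Wilson 95% interval 832 to 909) and the first 3'RR-deficient LPS library at 1056 (1026 to 1088). The intervals cover counting error only.

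The counts of both 5p arms kept a nearly fixed ratio. The ratio of miR-10b-5p to miR-10a-5p counts was 0.838 and 0.806 in wt NS, 0.838 and 0.795 in 3'RR-deficient NS and 0.838 in Eµ-deficient NS cells. It became 0.868 and 0.834 with LPS in wt, 0.868 and 0.837 in 3'RR-deficient and 0.834 in Eµ-deficient cells. The ratio over all libraries was 0.838, and its spread over the 10 libraries gave a chi-square of 9.05 on 9 degrees of freedom, near that of counting error if the rows are separate counts. The log2 ratio was -0.24 ± 0.03 in LPS and -0.28 ± 0.04 in NS libraries (SD, n = 5 each). The difference of 0.04 did not pass (two-sided exact permutation test within genotype, p = 0.222, adjusted p = 0.306 over 3 ratios). The smallest possible p was 0.0278 before adjustment, at which 1 ratio alone would not pass after it. The test could therefore not detect a change in this ratio alone.

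The arms of miR-10a varied more. The ratio of miR-10a-5p to miR-10a-3p counts was 30.5 and 46.1 in wt NS, 30.6 and 23.9 in 3'RR-deficient NS and 44.3 in Eµ-deficient NS cells. In LPS libraries it was 26.2 and 26.2 in wt, 28.7 and 31.5 in 3'RR-deficient and 25.0 in Eµ-deficient cells. The chi-square was 9.19 per degree of freedom, above counting error. The log2 ratio was 4.77 ± 0.13 in LPS and 5.08 ± 0.40 in NS libraries (SD, n = 5 each), a difference of -0.31 that did not pass (exact permutation test, p = 0.306, adjusted p = 0.306). The high ratios were those of the second wt NS library, which rests on 42 counts of miR-10a-3p, and of the Eµ-deficient NS library.

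**Figure D2:**
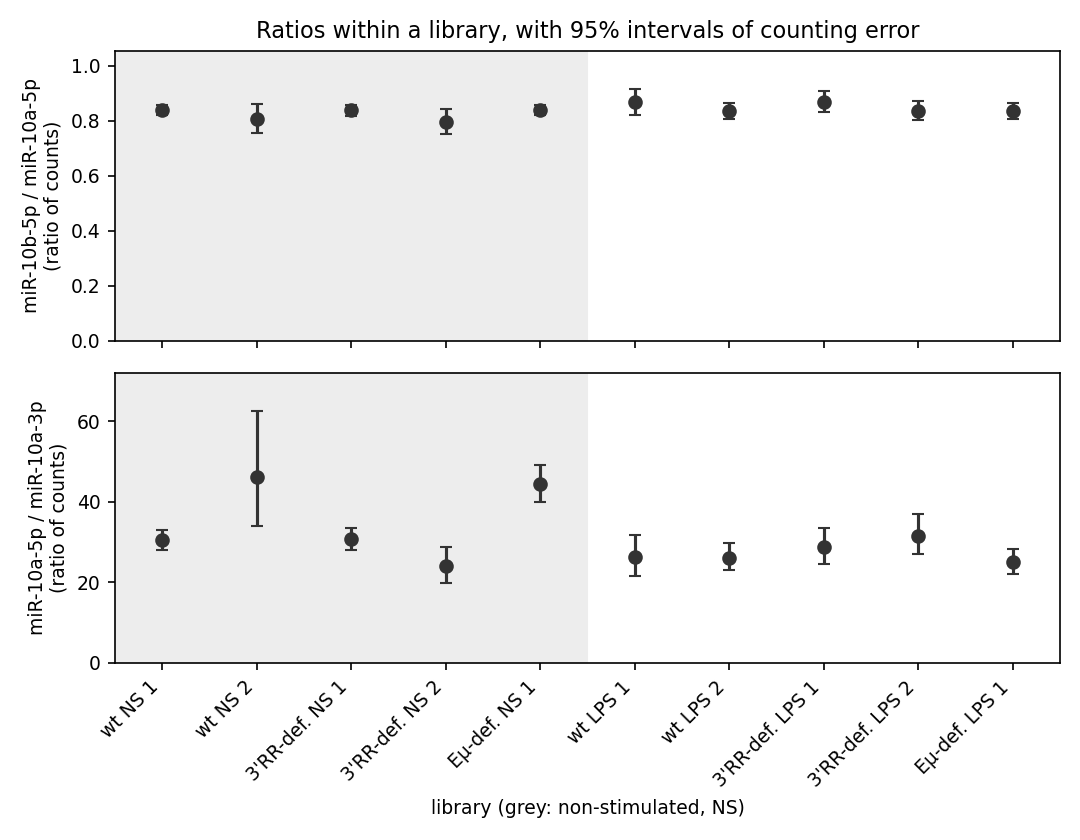
Ratio of miR-10b-5p to miR-10a-5p counts (top) and of miR-10a-5p to miR-10a-3p counts (bottom) in each of the 10 libraries, with NS libraries on grey and bars for the 95% interval of counting error. The upper ratio stays between 0.795 and 0.868 in all libraries, while the lower one runs from 23.9 to 46.1.

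The passenger arm of miR-10b had few counts beside the row of its guide arm. miR-10b-3p had 13 and 0 counts in wt NS, 5 and 0 in 3'RR-deficient NS, and 26 in Eµ-deficient NS cells. With LPS it had 1 and 0 counts in wt, 0 and 0 in 3'RR-deficient and 0 in Eµ-deficient cells. Counts above 1 were seen in the first NS libraries, the 3 deepest of the NS set. The Eµ-deficient NS library with 26 counts held 8131424 microRNA counts, and the 3 LPS libraries with 8354341, 9327402 and 10518659 microRNA counts had 0. The part of depth in these counts was not tested. Over all libraries miR-10b-3p made up 1.71% of the 3p counts of the family (Wilson 95% interval 1.28 to 2.28), whereas miR-10b-5p made up 45.6% of the 5p counts. The pooled 5p to 3p ratio was 31.2 for miR-10a and 1503 for miR-10b. Of the 45 miR-10b-3p counts, 26 came from the Eµ-deficient NS library, and without it, a choice made after the data were seen, the share was 0.843% (0.540 to 1.31) and the ratio 2864. The values with miR-10b-5p take its row as a separate count, which is uncertain for the reason given with the alike pairs. In the 6 libraries without a miR-10b-3p count, miR-10b-5p was at least 520-fold to 1889-fold higher, taking the floor of 3 counts per library. A count of 0 there allows a miR-10b share of up to 1.10% to 7.14% of the 3p counts, taken as 3 counts of the 3p total of each library. The highest share was 6.81% (4.69 to 9.79) in the Eµ-deficient NS library, against 2.05% in the first wt NS library, where the interval reached 3.48%.

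The log2 ratio of the arms of miR-10b, with 0.5 added to each count, was 1.89 higher in LPS libraries (exact permutation test, p = 0.0833, adjusted p = 0.25). Since most miR-10b-3p counts were 0, this value depends on the added count.

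How closely a pair of alike microRNAs can track was read from other pairs in the same table, chosen after the values were seen. Among 368 mature microRNAs with a RefSeq sequence and a mean of at least 20 counts, 14 pairs of the same length differed at 1 base, and 2 pairs had the same sequence. The SD over the 10 libraries of the log2 ratio of counts was 0.04 for miR-10a-5p and miR-10b-5p, the second lowest of the 14, where the median was 0.28 and the range 0.01 to 0.98. Over all 67528 pairs of the 368 microRNAs the median SD was 1.69. The lowest SD was that of miR-103-3p and miR-107-3p at 0.010, below both pairs with the same sequence (0.012 and 0.026). That of miR-29a-3p and miR-29c-3p, at 0.045, was the next above miR-10. The related pair of miR-99a-5p and miR-100-5p, which also differs at 1 base, had an SD of 0.30.

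The pairs with the same sequence show how the table counts reads. miR-199a-3p, listed at 2 loci in RefSeq, and miR-199b-3p, listed at 1 locus, stood at exactly 2 to 1 in 10 of 10 libraries. let-7a-1-3p and let-7c-2-3p had equal counts in 7 of 10 libraries. Reads of the miR-199 sequence were thus counted in both rows. Whether the miR-10a-5p and miR-10b-5p rows share reads in this way was not tested, since the allowed mismatches are not given in the sources used here, and the 5p rows are uncertain as separate measurements.

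**Figure D3:**
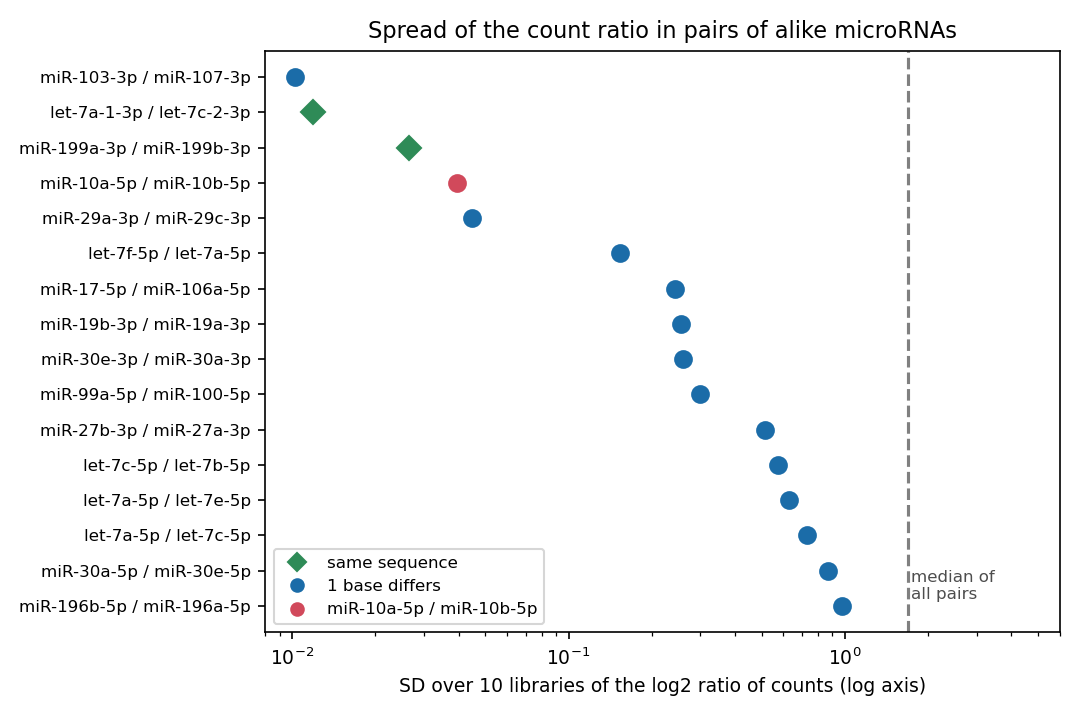
SD over the 10 libraries of the log2 ratio of counts (log axis) for 2 pairs of mature microRNAs with the same sequence and 14 pairs that differ at 1 base, with the median of all 67528 pairs as a dashed line. The pair of miR-10a-5p and miR-10b-5p (red, 0.039) lies right of both identical pairs (0.012 and 0.026) and far left of the median of 1.69. The 1-base pairs of miR-103-3p with miR-107-3p (0.010) and miR-29a-3p with miR-29c-3p (0.045) lie near it.

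The first comparison asked how LPS changed these microRNAs. As fitted without a block or a GC correction, neither 5p arm nor miR-10a-3p passed the test, and all had lower fitted values with LPS. miR-10a-5p gave a log2 fold change ± SE of -0.76 ± 0.76 in wt cells, -0.78 ± 0.76 in 3'RR-deficient cells and -0.77 ± 0.49 over both genotypes together, with adjusted p-values of 0.606, 0.613 and 0.291 (edgeR quasi-likelihood test). Over both genotypes 29.0% of the 720 features tested had a steeper decrease and the median of all was 0.07. As background, 0.694% of the features tested passed the threshold (were called) in wt cells, 0.972% in 3'RR-deficient cells and 21.8% in both together (13.2% higher, 8.61% lower).

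miR-10b-5p gave nearly the same values as miR-10a-5p, with log2 fold changes ± SE of -0.73 ± 0.78 in wt cells, -0.73 ± 0.78 in 3'RR-deficient cells and -0.73 ± 0.50 in both together, and edgeR adjusted p-values of 0.627, 0.639 and 0.327. For miR-10a-3p they were -0.41 ± 0.82, -0.85 ± 0.83 and -0.63 ± 0.54, with adjusted p-values of 0.812, 0.613 and 0.430. miR-10b-3p did not pass the filter on low counts in this fit. In Eµ-deficient cells the single libraries gave a log2 ratio of LPS to NS of -1.46 for miR-10a-5p and -0.62 for miR-10a-3p, with no test.

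The size of these values depended on which NS library was kept. For miR-10a-3p in wt cells the sign did too, with 0.74 without the first NS library. In wt cells miR-10a-5p gave -0.08 without the first NS library and -1.40 without the second. In 3'RR-deficient cells it gave -0.15 and -1.45. Over both genotypes it stayed between -1.08 and -0.53 with any 1 library left out. With all classes of small RNA in the fit, the value over both genotypes was -1.53 (adjusted p = 0.184). In a fit of the 501 mature microRNAs with a GC value and a correction for GC content, miR-10a-3p passed over both genotypes (-1.22, adjusted p = 0.0449), while mature microRNAs alone without the correction gave -0.75 (adjusted p = 0.290).

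Marker microRNAs of other cell types moved with LPS as well, and their part in the miR-10 values was not tested. Over both genotypes together, 2 of 2 myeloid markers were called lower (median log2 fold change -3.04), as were 5 of 6 mesenchymal markers (-3.79) and 1 of 3 erythroid markers (-2.37), beside the background of 8.61% called lower and 13.2% called higher. Rows of a list are not independent, since the myeloid ones are both arms of miR-223 and the endothelial ones both arms of miR-126a. The mesenchymal list holds both arms of miR-145a and of miR-199a, and the B-cell list both arms of miR-142a. The counts of called markers are therefore descriptions. None of the 2 endothelial (-0.05) and 4 epithelial markers (-0.86) was called. Of the 5 B-cell markers, 1 was called higher and 2 lower (-0.18). In the 8 libraries of this comparison the summed level ran from 479 to 1989.8 CPM in NS and from 82.4 to 146 CPM in LPS for the myeloid markers, and from 172 to 980 CPM and from 18.8 to 68.3 CPM for the mesenchymal ones. For the erythroid markers it was 2500 to 6581 CPM in NS and 138 to 955 CPM in LPS. The epithelial markers ran from 922 to 2172 CPM in NS and from 599.7 to 766 CPM in LPS, and the endothelial ones from 25.3 to 141 CPM and from 40.9 to 78.6 CPM. The Eµ-deficient LPS library was higher than the other LPS libraries in myeloid (512 CPM), mesenchymal (976 CPM) and erythroid markers (3570 CPM). Up to 3 of the 6 mesenchymal markers were at 0 in a library (miR-199a-5p and miR-214-3p among them), and the other marker lists had none at 0. In such bulk samples, fewer cells of a type and less RNA per cell cannot be told apart.

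The second comparison asked whether the lack of the 3'RR changed the family. None of the 3 members tested passed, and miR-10b-3p did not pass the filter on low counts. The log2 fold change of miR-10a-5p in 3'RR-deficient against wt cells was 0.23 ± 0.76 (± SE) in NS, 0.20 ± 0.76 in LPS and 0.21 ± 0.49 over both conditions, with edgeR adjusted p-values of 1, 1 and 0.997. Libraries of the same number gave log2 ratios of -0.04 and 0.34 in NS and of 0.80 and -0.49 in LPS, so the direction was mixed within each condition. The background was 0% in NS, 0% in LPS and 0.139% over both conditions. At an unadjusted p under 0.05, 9 of the 720 features tested passed in NS and 15 in LPS with edgeR, below the share of 0.05 expected without any difference. The DESeq2 Wald test called 1 feature in NS and 2 in LPS.

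The difference of the LPS responses, 3'RR-deficient minus wt, was -0.02 for miR-10a-5p (SE 1.07, adjusted p = 1.00). In this comparison 0% of the features were called by edgeR and 0 by DESeq2. At an unadjusted p under 0.05 there were 5 of the 720 features tested, below the share of 0.05 expected without any difference. An SE of 1.07 leaves room for differences of more than 2-fold in either direction.

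The third comparison asked about the lack of Eµ, tested over both conditions in a fit of all 10 libraries. miR-10a-5p differed by -0.05 from wt cells (SE 0.58, adjusted p = 0.977) and by -0.15 from 3'RR-deficient cells (SE 0.59, adjusted p = 0.946). Its sign turned with the scaling, to 0.37 and 0.24 with scaling to the total microRNA count. The background was 1.62% of 988 features against wt and 2.02% against 3'RR-deficient cells. In single libraries, Eµ-deficient NS cells were below the first NS library of wt cells by 0.37 on the log2 scale and above the second one by 1.34.

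Over all 9 comparisons, miR-10b-5p differed from miR-10a-5p by at most 0.05 in log2 fold change and its smallest adjusted p was 0.327. miR-10a-3p differed from miR-10a-5p by at most 0.41, ran from -0.85 to 0.45, and had a smallest adjusted p of 0.430. miR-10b-3p entered only the fit of 10 libraries, where Eµ-deficient cells gave 0.57 ± 3.33 (± SE) against wt and 2.23 ± 2.04 against 3'RR-deficient cells. In that fit the Eµ-deficient groups of 1 library let a feature pass the low-count filter through a single library. The highest count of miR-10b-3p, 26, was in the Eµ-deficient NS library, so its values are no test of a difference. The 9 comparisons share libraries, and the values are given side by side only.

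**Figure D4:**
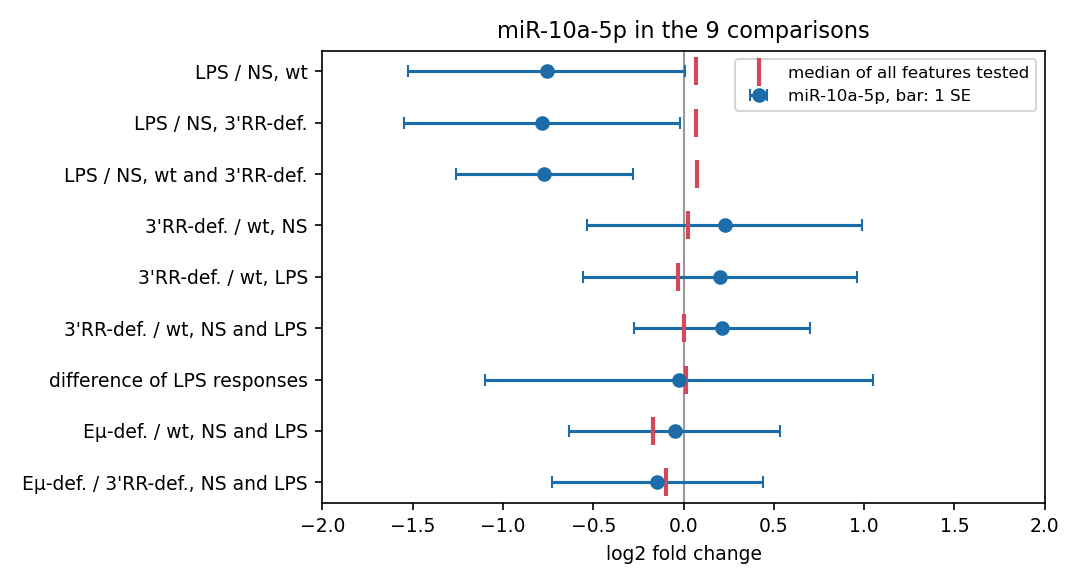
Log2 fold change of miR-10a-5p in the 9 comparisons (points, with bars of 1 SE) beside the median of all features tested (red marks). The 3 LPS comparisons lie between -0.78 and -0.76 and the 6 others between -0.15 and 0.23, with SEs from 0.49 to 1.07.

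The related miR-99/100 microRNAs, known as regulators of mTOR signalling, were lower than the 5p arms of miR-10. Their level over 10 libraries ran from 9.51 to 316 CPM for miR-99a-5p, from 9.07 to 288 CPM for miR-100-5p and from 11.3 to 187 CPM for miR-99b-5p. All 3 were called lower with LPS over both genotypes together, beside a background of 8.61%. The log2 fold changes were -2.14 for miR-99a-5p (SE 0.43, adjusted p = 0.00762), -2.05 for miR-100-5p (SE 0.45, adjusted p = 0.0109) and -1.81 for miR-99b-5p (SE 0.52, adjusted p = 0.0310). The call of miR-99b-5p was lost without the second NS library of wt or of 3'RR-deficient cells, either wt LPS library or the second 3'RR-deficient LPS library (adjusted p 0.0525 to 0.0937). Leaving out single libraries for the miR-99/100 microRNAs was added after the data were seen. Their difference from miR-10a-5p was not tested. In the same comparison 5 of 6 mesenchymal, 2 of 2 myeloid and 1 of 3 erythroid marker rows were also called lower. The B-cell markers had 1 called higher and 2 lower, and none of the epithelial and endothelial rows was called. The part of these markers in the miR-99/100 values was not tested.

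In Eµ-deficient cells 2 of the 3 were called higher, beside a background of 1.42% called higher against wt and 1.72% against 3'RR-deficient cells. Against wt cells the log2 fold change was 2.59 for miR-99a-5p (adjusted p = 0.0239) and 3.24 for miR-100-5p (adjusted p = 0.0165), while miR-99b-5p gave 1.37 (adjusted p = 0.287). Against 3'RR-deficient cells it was 3.67 and 4.01 (adjusted p = 0.00462 for both) and 1.76 for miR-99b-5p (adjusted p = 0.119). These calls rest on 2 Eµ-deficient libraries, and both were lost without the LPS one (miR-99a-5p 1.87, adjusted p = 0.503, and miR-100-5p 2.27, adjusted p = 0.403, against wt, and 2.84 and 2.93, both with adjusted p = 0.211, against 3'RR-deficient cells). With 1 library left, its spread was taken to be that of the other groups. Without the Eµ-deficient NS library both calls remained, with 3.26 and 4.01 against wt (adjusted p = 0.0347 and 0.0215) and 4.41 and 4.86 against 3'RR-deficient cells (adjusted p = 0.00477 and 0.00354). Those against wt were also lost without either wt LPS library (lowest adjusted p 0.0610). Some markers of other cell types had positive values in the same comparisons. Of the 6 mesenchymal markers 1 was called higher against wt and 3 against 3'RR-deficient cells, with medians of 3.60 and 4.98. The 2 myeloid markers (medians 1.77 and 1.46) and the 3 erythroid markers (2.51 and 1.37) all had positive values with 0 called. The 4 epithelial markers (medians -0.45 and -0.05) and the 2 endothelial markers (-0.37 and 0.11) had values of both signs with 0 called. The part of these markers in the result was not tested.

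The other microRNAs of the Hox clusters had low levels, of which the highest was miR-196b-5p with 25.0 CPM in the Eµ-deficient NS library. Of 7 listed, 4 were in the table and 3 were tested, and their summed level was 2.66 to 41.2 CPM in NS and 0.221 to 5.08 CPM in LPS libraries. With LPS over both genotypes 1 of the 3 was called lower, miR-196b-5p (adjusted p = 0.0302), which lies in the Hoxa cluster, beside the background of 8.61%. Its level was 16.5, 2.66, 5.68 and 0 CPM in the wt and 3'RR-deficient NS libraries and 0.625, 0, 0 and 0 CPM in the LPS ones, so NS and LPS overlapped at 0.

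The microRNAs whose pattern was most like that of the 5p arms were sought among 155 mature microRNAs with a mean of at least 100 CPM. For miR-10a-5p they were miR-10b-5p (Pearson r 0.999 of log2 CPM over 10 libraries), miR-26a-5p (0.949), miR-26b-5p (0.932), miR-361-5p (0.900) and miR-23a-3p (0.881), where the median over the microRNAs compared was 0.30. For miR-10b-5p the list was the same down to miR-361-5p (0.888), after miR-26a-5p (0.957) and miR-26b-5p (0.934), and its last was miR-532-5p (0.884). These libraries share genotypes, depth and the scaling, and the values are descriptions. miR-26a-5p stood at 95261 and 93707 CPM in the first NS libraries of wt and 3'RR-deficient cells and at 19048 and 19937 CPM in the second ones. As it was picked by its correlation over these same libraries, a split of the NS replicates like that of miR-10 follows from the choice.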

How the data were processed

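Small RNA was sequenced from 10 pools of CD43- splenic B-cells. Libraries were made with the NextFlex kit (17 PCR cycles, 75 nt reads). The deposited table, as the authors supplied it, holds whole-number counts per small RNA feature, without normalization. The submitters' processing notes name cutadapt 1.2.1, Bowtie2 and mm10. The counting program, the allowed mismatches and the handling of reads matching several places are not given in the sources used here. All table columns were used.

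Depth was 3482540 to 18144016 counts per library, and the precision of a share is given by Wilson 95% intervals which cover counting error only, because reads amplified by PCR were not collapsed by molecular identifiers. Features of the microRNA class were compared in R 4.3.3 with edgeR 4.0.16 (TMM, filterByExpr, two-sided quasi-likelihood F-test, Benjamini-Hochberg over all features tested, threshold 0.05). The SE is the log2 fold change divided by the square root of F. wt and 3'RR-deficient libraries were fitted as 4 groups of 2 with 720 features passing the filter, and comparisons over both conditions used additive terms. Eµ-deficient cells, with 1 library per condition, were compared over both conditions in a fit of 10 libraries (988 features). Adjusted p-values come from this test unless another is named. The study's methods state no test for small RNA counts. For log2 ratios between single libraries a prior count of 2 was added. Ratios within a library, with 0.5 added to counts, were tested by exact permutation within genotype (72 permutations). Scripts were tested on simulated data. Replicates are pools of mice, so p-values measure the spread between pools.

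All 4 members, 2 lists of related microRNAs, 6 marker lists and the 5 microRNAs most correlated with each 5p arm were named by rule. The members and lists were chosen with earlier results of these data known. Alternatives were DESeq2 1.42.0, other scalings and filters, other feature classes, a GC correction, replicate blocks, other sets of libraries and leaving out each library.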

Additional observations from a re-analysis of the deposited data

How the results depend on the processing

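Under the alternatives run, no call on a miR-10 member was lost, since none passed in the main comparisons. For miR-10b-3p the floor of 3 counts was 0.24 to 1.35 CPM of the microRNA class, which sets the depth limit of its values. With LPS over both genotypes together, the log2 fold change of miR-10a-5p stayed below 0 (-1.53 to -0.53, adjusted p 0.0123 to 0.492), as did those of miR-10b-5p and miR-10a-3p. miR-10a-3p passed with the GC correction, fitted on mature microRNAs alone (-1.22, adjusted p = 0.0449; 81.9% of the tested mature microRNAs had a GC value). Leaving out 1 library gave -1.08 to -0.53 for miR-10a-5p over both genotypes. miR-10a-3p in wt cells ran from -1.18 to 0.74, and turned to 0.74 without wt NS replicate 1. The 3 ratios within a library kept their direction. Their missing the threshold says nothing of stability, since the smallest possible p was 0.0278 before adjustment.

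The replicate numbers of the labels are not said to mark a shared day or animal. The replicate differences correlated at 0.67 between the NS groups of wt and 3'RR-deficient cells and at 0.11 between their LPS groups, and at -0.28 to -0.05 between NS and LPS groups, and with 2 pairs a group and no shared day or animal in the labels the numbers were not taken to pair the samples. With the number as an additive replicate block, miR-10a-5p gave -0.60 with LPS over both genotypes (adjusted p = 0.345). With a replicate block within culture condition, miR-10a-5p passed (-1.25, adjusted p = 0.0123), as did miR-10b-5p (-1.20, adjusted p = 0.0158), and with the GC correction added to that block they gave -1.03 (adjusted p = 0.0154) and -0.98 (adjusted p = 0.0238). The block within condition called 99 features for LPS in wt cells (5 without it), 90 in 3'RR-deficient cells (7), 1 for 3'RR-deficient against wt in NS, 2 in LPS and 7 over both, 105 for Eµ-deficient against wt and 102 against 3'RR-deficient cells. When the GC correction was added, the counts were 87, 66, 1, 10, 10, 63 and 66. The additive block called 27 for LPS in wt and 11 in 3'RR-deficient cells. A crossed pairing, added after the data were seen, called 87, 83 and 222 for LPS in wt, in 3'RR-deficient and in both.

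Counts of calls moved with the method. DESeq2 called 103 features for LPS in wt, 97 in 3'RR-deficient and 247 in both (157 with edgeR), 1, 2 and 2 for 3'RR-deficient against wt in NS, LPS and both, and 57 and 69 for Eµ-deficient against wt and against 3'RR-deficient cells (16 and 20 with edgeR). Without the low-count filter they were 50, 31, 47 and 45 for LPS in wt, LPS in 3'RR-deficient, and the 2 Eµ comparisons. With all features of the table they were 0, 0, 156 and 164, and with the GC correction 39, 27, 29 and 34, with 1 and 2 for 3'RR-deficient against wt in NS and both. Total-count scaling gave 10 for LPS in wt and 28 for Eµ-deficient against wt, mature microRNAs alone 3 for LPS in wt and 8 for Eµ-deficient against 3'RR-deficient, and 10 CPM in at least 2 libraries, like the 4 libraries compared alone, 15 for LPS in 3'RR-deficient cells. Leaving out 1 library gave 0 (without wt NS 2 or wt LPS 1) to 71 (3'RR NS 1) for LPS in wt, 0 (3'RR NS 2 or wt LPS 1) to 62 (3'RR NS 1) in 3'RR-deficient, 71 (wt LPS 2) to 163 (wt NS 1) in both, 0 to 1 for 3'RR-deficient against wt over both, 1 (Eµ LPS 1) to 33 (wt NS 1) for Eµ-deficient against wt and 0 (Eµ LPS 1) to 37 (wt NS 2) against 3'RR-deficient.

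The sign of miR-10a-5p between genotypes was not stable. For the difference of LPS responses it was 0.15 with DESeq2 size factors and with DESeq2, 0.055 without the filter, 0.091 with 10 CPM, 0.040 with mature microRNAs and 0.022 with all features. For Eµ-deficient against wt it was 0.11 with DESeq2 size factors, DESeq2 and no filter, 0.37 with total scaling, 0.23 with 10 CPM, 0.15 with mature microRNAs, 0.20 with all features, 0.34 with the GC correction and 0.24 with the block added. For Eµ-deficient against 3'RR-deficient it was 0.24 with total scaling, 0.091 with 10 CPM and 0.055 after GC correction. Total scaling moved the median of all features by up to 0.27 in these comparisons. Leaving out 1 library gave -0.72 to 0.73 for the difference of responses (without wt NS 1 and 3'RR NS 1), -0.51 to 0.94 (3'RR NS 1, wt NS 1), -0.22 to 0.59 (3'RR LPS 1, 3'RR LPS 2) and -0.061 to 0.50 (3'RR NS 1, wt NS 1) for 3'RR-deficient against wt in NS, LPS and both, -0.42 to 0.57 (Eµ NS 1, wt NS 1) for Eµ-deficient against wt and -0.48 to 0.25 (Eµ NS 1, Eµ LPS 1) against 3'RR-deficient. The cause of these moves was not tested.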
